A study of Mus musculus with 9 samples.

Results

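The Peg13 and Trappc9 domain lies on mouse chromosome 15 and holds 5 genes, Kcnk9, Trappc9, Peg13, Chrac1 and Ago2. It was examined here as every accessible region that touched the body of any of these genes or the 20 kb on either side, in the GENCODE M21 annotation of the mm10 genome, a window of 720.6 kb. Peaks of the 9 libraries that overlapped or touched were merged, and 74 of the 135835 merged regions of the series lay in the domain. Of these, 47 were consensus regions, called in 2 or more libraries of WT, B10 or G7, against 97338 consensus regions in all. The domain was chosen by the measured values at the start of Peg13, so the values at that start are given as a description with no test.

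Imprinted genes are expressed from the copy inherited from only 1 parent, and germline methylation of a CpG-rich control region tells the parental copies apart. Peg13 is a paternally expressed non-coding RNA transcribed from within an intron of Trappc9, and its promoter is such a control region, methylated on the maternal copy. The factor ZFP57 binds the methylated sequence TGCCGC and keeps methylation in place at imprinted control regions, whereas CTCF binds the unmethylated copy of several of them. ATRX is a chromatin remodeler that works with DAXX to place the histone variant H3.3 in heterochromatin. Trappc9 encodes a subunit of a vesicle trafficking complex, Kcnk9 a potassium channel, Chrac1 a small histone-fold protein of a chromatin remodeling complex and Ago2 the Argonaute protein that cuts target RNAs. The deposited files do not separate the parental copies, so each value below is for both together.

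Chromatin accessibility was measured by Omni-ATAC-seq, in which a transposase inserts adapters into open DNA, in C3H/10T1/2 cells, a mouse mesenchymal progenitor cell (MPC) line. B10 and G7 are Atrx knockout (KO) clones, each grown from a single CRISPR-Cas9 edited cell and each made with a different guide against Atrx. WT is the isogenic control, which received Cas9 without a guide and went through the same single-cell cloning. Each line gave 3 libraries, each line is 1 clone, and no treatment or differentiation was named in the labels. Nothing in the labels says whether the replicates were separate cultures, so each p-value measures only the spread between these libraries. Peak lists do not measure the ATRX protein, so the lines are taken as labelled.

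The libraries held 76385 to 88535 peaks on the assembled chromosomes, and the deposited peak lists hold no read counts, so the sequencing depth behind a missing peak is unknown. Because of this, the strength of a peak is given as its rank, the percentile of its -log10 q value among all peaks of the same library, where a high rank is a strong peak. Libraries that shared a replicate number deviated together, and replicate 1 of each line held the most domain peaks of its line. Of 10 mesenchymal marker genes, 9 had a peak within 1 kb of a start in all 9 libraries. Among markers of other cell types this was so for 0 of 3 leukocyte, 0 of 3 epithelial, 0 of 2 pluripotent, 2 of 3 endothelial and 1 of 3 neural genes.

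The sequence under the Peg13 peak is shown because it holds matches to TGCCGC, the sequence that ZFP57 binds when methylated. The window holds 300 bases around the median summit, read from GRCm38, chr15:72809918-72810217, on the minus strand in the direction of Peg13 transcription, with each TGCCGC or its reverse complement GCGGCA in capitals.
Peg13 summit window: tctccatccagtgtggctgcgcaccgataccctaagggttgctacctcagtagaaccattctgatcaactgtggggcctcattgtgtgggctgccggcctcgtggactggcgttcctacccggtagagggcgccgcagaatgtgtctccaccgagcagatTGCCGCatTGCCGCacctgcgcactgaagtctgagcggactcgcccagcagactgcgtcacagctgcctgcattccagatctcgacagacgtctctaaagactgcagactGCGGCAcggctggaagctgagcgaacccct

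This window held 3 matches to TGCCGC on either strand. At least 1 match was present in the same window of 6.06% of the 97335 consensus regions whose sequence could be read, and 3 or more in 0.0976%. The Peg13 window contained 20 CpG dinucleotides, against a median of 3 over all consensus regions, and 8.68% of consensus regions had as many or more. Of the 2889 regions that were gained in both clones across the genome, 2.60% had as many. G and C made up 60.3% of its bases, against a median of 48.7%, and the ratio of observed to expected CpG was 0.735 against a median of 0.203. It also held a match to a core word of the CTCF site, as did 29153 of the 97335 consensus regions. The core words searched, on both strands, were AGGGGGC, then AGGTGGC, the like word AGATGGC and, as the last of this set, AGAGGGC. No G-quadruplex pattern was found in it, against 7.91% of consensus regions with a match. Such matches describe the letters of the window and were not tested for binding.

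**Figure D1:**
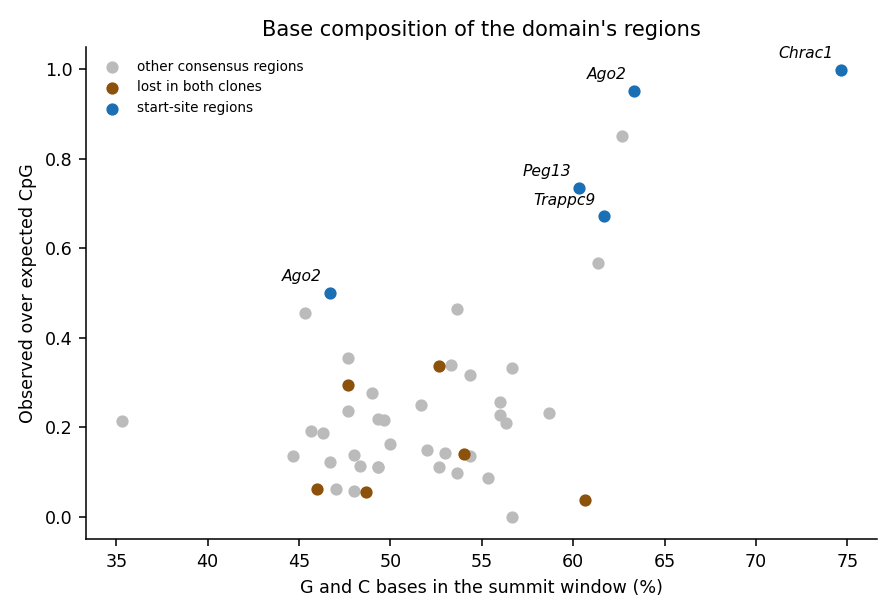
Percentage of G and C bases (x axis) against the ratio of observed to expected CpG (y axis) in the summit window of the 47 consensus regions of the domain, with start-site regions in blue and regions lost in both clones in brown. The Peg13 region sits at 60.3% and 0.735, between the CpG ratio of the Trappc9 start, 0.671, and that of the main Ago2 start, 0.951, and the lost regions lie at 0.0370 to 0.337.

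At the start of Peg13, both KO clones had a strong peak in all libraries and WT had none. The merged region, chr15:72809076-72810733, spanned 1658 bp in intron 16 of the 22-exon Trappc9 transcript ENSMUST00000023276.15 and covered the Peg13 start site at position 72810324. Its rank was 86.7, 84.9 and 84.2 in B10 replicates 1 to 3. In G7 the rank was 88.5, 87.3 and 86.4. No peak was called there in any of the 3 WT libraries, so 6 of 6 KO libraries and 0 of 3 WT libraries held the region.

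The fold enrichment over background at the summit was 13.1, 13.2 and 12.9 in B10 and 14.1, 13.01 and 12.7 in G7. The -log10 q value was 142, 141 and 129 in B10 and 187, 158 and 148 in G7. By line, the mean rank was 85.3 ± 1.31 (SD, n = 3) in B10 and 87.4 ± 1.06 (SD, n = 3) in G7, and the ranks of the 2 clones overlapped. The 6 peaks were also placed alike. They were 1542 to 1658 bp wide, shared 1507 bp, and their summits fell within 67 bp, 190 to 257 bp downstream of the Peg13 start. Together they reached from 409 bp upstream of the start to 1248 bp downstream, inside the Peg13 transcript of 4.7 kb.

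**Figure D2:**
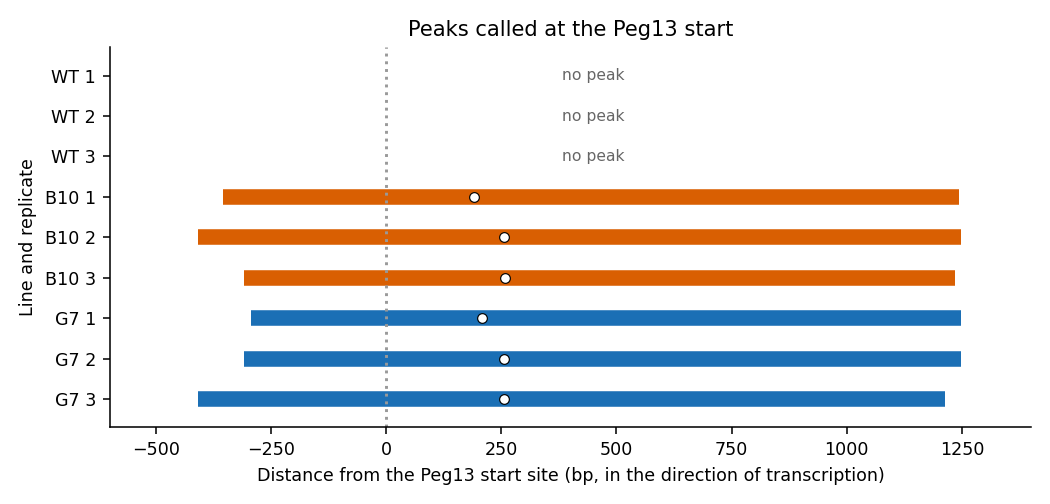
Extent of each called peak (bars) and its summit (white circles) relative to the Peg13 start site, in bp along the direction of transcription, for the 9 libraries. All 6 KO peaks cover the start, with summits 190 to 257 bp downstream, and the 3 WT libraries have no peak.

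Across the genome 1054 regions were present in every KO library (6 of 6) and absent from WT. The value that set Peg13 apart in this choice was the lowest KO rank, 84.2, with the next regions at 83.1 and 79.5. The median rank of regions gained in both clones was 26.1, and 0.0692% of them, Peg13 itself included, reached the Peg13 median of 86.5. Since the rank was part of the choice, this share is a description only. Of the 47431 regions open in all 9 libraries, 22.4% ranked as high.

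Around the Peg13 start the nearest other peaks were weak in WT and KO cells alike. On the downstream side the nearest peak lay 7.2 to 7.4 kb away in 8 of 9 libraries and 35.7 kb away in B10 replicate 3. On the upstream side the gap ran from 26.2 to 78.5 kb. The closest region, chr15:72801265-72801915, overlaps an exon of Trappc9 in the annotation and lies within intron 16 of the 22-exon transcript. It ranked 29.4, 20.8 and 3.28 in WT, 24.1 and 3.42 in B10 replicates 1 and 2, and 12.2, 20.6 and 5.98 in G7, so the lines overlapped.

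Over the domain, regions were called gained in a clone where at least 2 of its 3 libraries and no WT library held a peak, and lost where the reverse held. Of the 47 consensus regions, 2 were gained in B10, against 10.4% of consensus regions genome-wide, and 7 were lost in B10, against 7.58%. In G7, 3 were gained, against 5.69%, and 8 were lost, against 7.42%. The Peg13 region alone was gained in both clones, which the choice of the domain fixed, against 2.97% genome-wide. Both clones had lost the same 6 regions, 12.8% of the domain, against 4.36% of consensus regions genome-wide and 4.18% of the 5603 on chromosome 15 outside the domain. In the 1 Mb either side of the domain, 9 of 98 consensus regions were lost in both clones and 0 were gained in both.

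Just outside the window, the next region on each side was itself lost in both clones. Below the lower edge, chr15:72232453-72232813 was 248.3 kb away and ranked 18.7 and 20.5 in WT replicates 2 and 3. Above the upper edge, chr15:73220703-73221042 was 15.8 kb away and ranked 8.09 and 13.3 in the same libraries. The outermost regions inside the window were chr15:72516914-72517581, described below, and chr15:73202485-73202871, which had weak peaks in 1 library of each line.

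**Figure D3:**
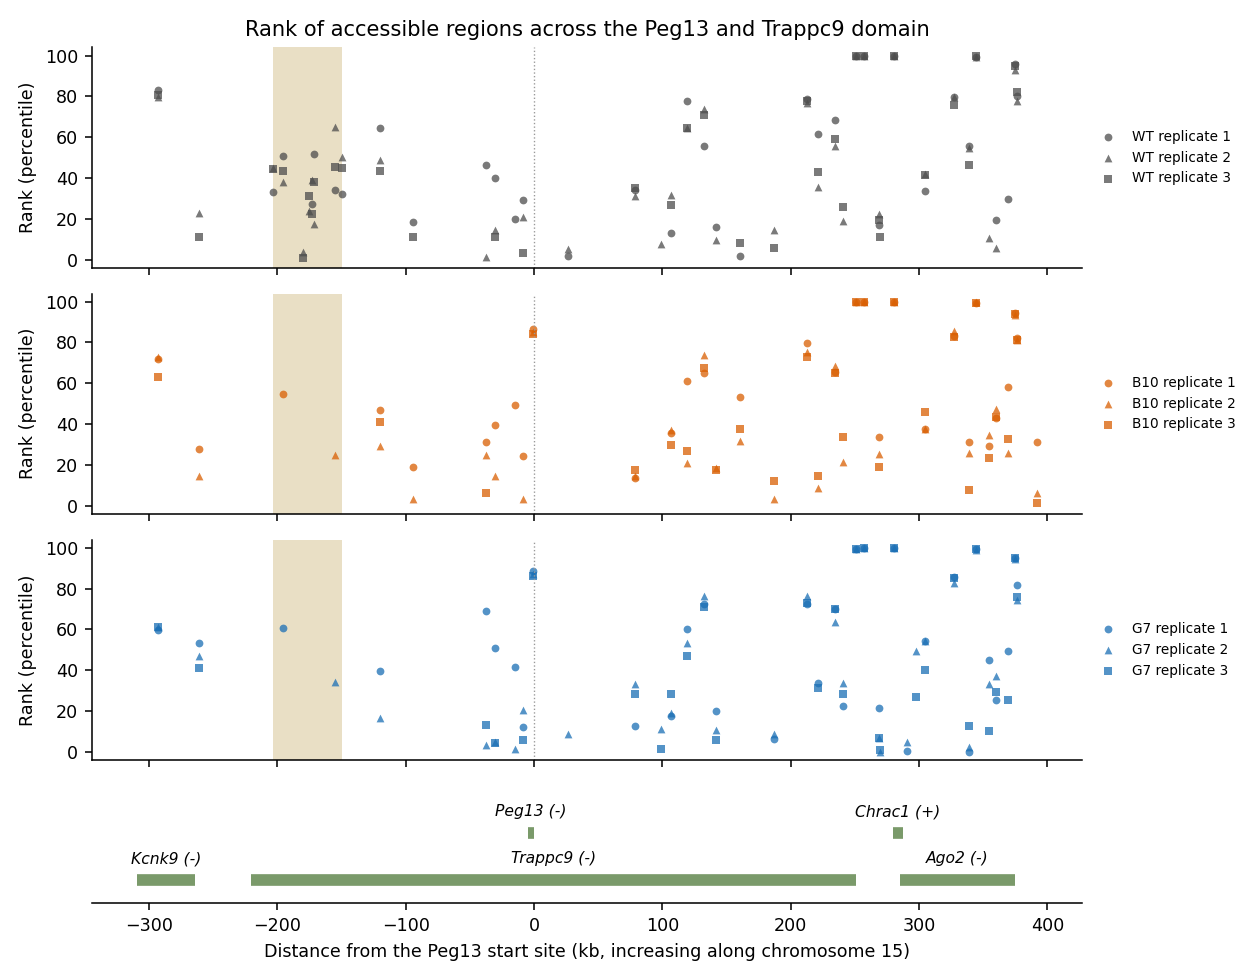
Rank of each consensus region (y axis, percentile of -log10 q within the library) against its distance from the Peg13 start in kb (x axis) for WT, B10 and G7, with symbols for replicates and gene bodies and strands at the foot. The shaded span holds the 6 regions lost in both clones, and the Peg13 region at 0 is present in the KO panels at ranks 84.2 to 88.5 and absent from the WT panel.

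All 6 regions lost in both clones lay in intron 20 of Trappc9, within 53.6 kb, between 149.6 and 203.2 kb from the Peg13 start and 17.5 kb from the end of Trappc9. None of the 6 KO libraries held any of them, 4 were present in 3 of 3 WT libraries and 2 in 2 of 3. The WT peaks were 193 to 693 bp wide and ranked 0.547 to 51.5, so they were narrower and weaker than the Peg13 peaks of the KO clones.

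In order along the chromosome, chr15:72607150-72607439 ranked 33.1, 44.9 and 44.2 in WT replicates 1 to 3. The next, chr15:72630629-72630855, was seen only in replicates 2 and 3, at ranks 3.73 and 0.547. For chr15:72635130-72635604 the ranks in replicates 2 and 3 were 23.7 and 31.2. These last regions are the ones that a single WT library can decide. The remaining members were held by all WT libraries, with chr15:72637474-72637912 at 27.4, 38.8 and 22.1. The neighbouring chr15:72639083-72639411 ranked 51.5, 17.3 and 37.9. At the far end, chr15:72660015-72660707 ranked 32.2, 50.3 and 45.0, with fold enrichments of 6.52, 8.08 and 7.43. Without WT replicate 2 or without WT replicate 3, 4 regions were called lost in both clones in place of 6.

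The same 53.6 kb held 2 other consensus regions, and each was present in 3 of 3 WT libraries and in 1 library of each clone. At chr15:72614489-72615023 WT ranked 50.9, 38.1 and 43.5, B10 replicate 1 ranked 54.9 and G7 replicate 1 ranked 60.6. At chr15:72655011-72655823 WT ranked 34.2, 65.1 and 45.2, B10 replicate 2 ranked 24.9 and G7 replicate 2 ranked 34.5. Neither met the rule for a loss. Of the 4247 regions lost in both clones across the genome, 2, or 0.0471%, began a window of 60 kb that held 6 such regions. That was the most in any such window, and the first region of this cluster was itself among the 2. The share counts only the region that begins a window, so it is not the share of lost regions that lie in one. This window length was chosen after the values were seen.

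Sequence around the summits of 4 of these regions, those held by all WT libraries, is shown because it bears on how they can be read. The regions at 72637474 and 72639083 are inverted copies of each other, 1.17 kb apart, and over the best local alignment 250 of 295 columns, or 84.7%, were identical. In the windows of 100 bases printed here 96 bases matched, and the mismatches are in capitals. The first is chr15:72637645-72637744 on the plus strand and the second chr15:72639146-72639245 on the minus strand, both GRCm38.
Region 72637474, plus strand: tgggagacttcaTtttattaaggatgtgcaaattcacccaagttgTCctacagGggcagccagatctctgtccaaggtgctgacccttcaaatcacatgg
Region 72639083, minus strand: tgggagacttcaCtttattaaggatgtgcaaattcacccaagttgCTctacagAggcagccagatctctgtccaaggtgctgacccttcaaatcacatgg

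Reads that fit both copies can be placed at either, so these 2 regions may share signal and their values are uncertain as separate measurements. In the outer windows, chr15:72607232-72607331 and chr15:72660237-72660336 on the plus strand, capitals mark a match to TGANTCA, the site of the AP-1 factors, a motif searched on both strands and added after the values were seen.
Region 72607150, plus strand: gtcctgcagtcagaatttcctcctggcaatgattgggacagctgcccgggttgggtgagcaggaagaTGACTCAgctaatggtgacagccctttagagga
Region 72660015, plus strand: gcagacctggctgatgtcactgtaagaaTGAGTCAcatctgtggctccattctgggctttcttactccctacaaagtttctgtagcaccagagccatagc

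Of the 6 summit windows of 300 bases, 2 held TGANTCA. The share was 25.4% over all consensus regions and 36.5% over the regions lost in both clones genome-wide. None of the 6 held TGCCGC or a CTCF core word. Their median CpG count was 2, against 4 over the 47 regions of the domain and 20 at Peg13.

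Other calls of gain or loss in the domain belonged to a single clone. A region in intron 8 of Trappc9, chr15:72970149-72970781, ranked 53.4, 31.6 and 37.4 in B10 and only 1.63 and 8.24 in WT replicates 1 and 3, and no G7 library held it. It was therefore called lost in G7 while B10 lay above both WT peaks. Genome-wide, 8.25% of consensus regions were held by at least 2 B10 libraries and by no G7 library. The reverse held for 4.24%. In the domain these were 3 and 4 regions of 47.

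In intron 18 of Trappc9, chr15:72715550-72716295 was lost in G7. Its ranks were 18.6 and 10.8 in WT replicates 1 and 3 and 18.7 and 3.42 in B10 replicates 1 and 2. In intron 16, chr15:72836925-72837244 was lost in B10, with ranks of 1.63 and 5.22 in WT and 8.68 in G7 replicate 2. These were weak peaks in every library that held them. The remaining calls were gains at the Ago2 end of the domain. Within Ago2, chr15:73100466-73100929, in an exon, ranked 0.610 and 4.73 in G7 replicates 1 and 2, and chr15:73107550-73108155, in an intron, ranked 49.6 and 26.9 in G7 replicates 2 and 3. Upstream of Ago2, chr15:73201975-73202316 was gained in B10 at ranks of 31.4, 6.05 and 1.46. Beside these, G7 replicates 2 and 3 held 2 regions that B10 lacked and that were also seen in 1 WT library. Between Trappc9 and Chrac1, chr15:73079431-73080236 ranked 0.0316 and 0.680 in them and 10.8 in WT replicate 3. In intron 15 of Trappc9, chr15:72909106-72909515 ranked 11.4 and 1.35 in them and 7.40 in WT replicate 2.

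**Figure D4:**
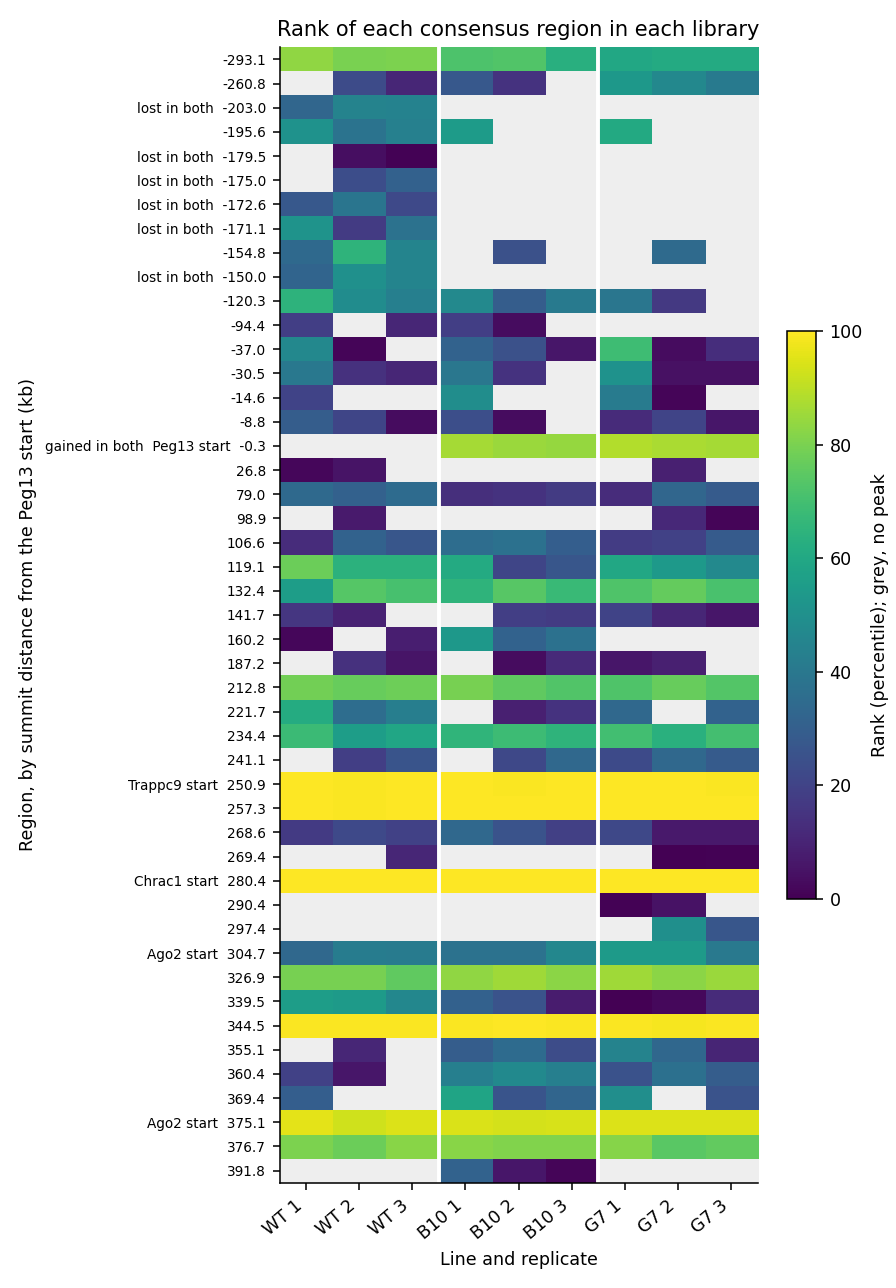
Rank of the 47 consensus regions (rows, ordered along the chromosome and named by the distance of the summit from the Peg13 start in kb) in the 9 libraries (columns), with grey where no peak was called. The Peg13 row is filled in the 6 KO libraries only, the 6 lost rows in WT only, and the start-site rows of Trappc9 and Chrac1 rank above 99 in every library.

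The genes around Peg13 kept open start sites in all 9 libraries where they had any. The Trappc9 start region, chr15:73060207-73061560, ranked 99.7, 99.5 and 99.7 in WT, 99.7, 99.6 and 99.6 in B10 and 99.6 in each G7 library. At the Chrac1 start, chr15:73089928-73091255, the ranks ran from 99.6 to 99.8 over the 9 libraries. The main Ago2 start region, chr15:73183732-73185770, ranked 95.8, 92.8 and 94.9 in WT, 94.2, 93.6 and 93.9 in B10 and 94.9, 94.6 and 94.8 in G7. In all 3 genes the lines overlapped. A second annotated Ago2 start, under chr15:73114560-73115388, ranked 33.8 to 41.9 in WT, 37.6 to 46.2 in B10 and 40.3 to 54.5 in G7.

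By limma, the start regions differed from WT by -0.01 percentile points in B10 (SE 0.257, adjusted p = 0.980) and -0.05 in G7 (SE 0.257, adjusted p = 0.936) at Trappc9. At Chrac1 the limma differences were -0.02 (SE 0.253, adjusted p = 0.971) and 0.03 (SE 0.253, adjusted p = 0.965). A rank so close to the top of the scale leaves little room for a rise, and the fold enrichment at the Chrac1 summit was 18.5 to 19.4 in WT, 19.1 to 19.8 in B10 and 18.5 to 20.2 in G7. The highest region of the whole domain by median rank lay 6023 bp beyond the Trappc9 start, at chr15:73067227-73068449, and ranked 99.6 to 99.9 in every library. It held 25 CpG in its window.

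Kcnk9 had no peak within 1 kb of its start in any library. The nearest region, chr15:72549159-72549827, lay 2819 bp from it. It ranked 22.9 and 10.8 in WT replicates 2 and 3 and 27.7 and 14.6 in B10 replicates 1 and 2, and all 3 G7 libraries held it at 53.5, 46.7 and 41.0, above every WT and B10 value. Since WT replicate 1 and B10 replicate 3 had no peak there, this region was outside the set open in all 9 libraries. When regions with a peak in at least 2 libraries of every line were tested, missing ranks left out, its limma difference from WT was 30.2 points in G7 (adjusted p = 0.0434) and 4.27 in B10 (adjusted p = 0.782).

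In 17 of the 47 regions, 36.2% against 48.7% genome-wide, all 9 libraries held a peak, and the rank could be compared by limma with adjustment over all 47431 such regions. The main fit had no term for replicate number. In it, rank fell in B10 at 3 of the 17 and in G7 at 2, and rose at none. Genome-wide, by the same fit, 5.37% of such regions were lower and 11.0% higher in B10, and 4.82% were lower and 5.39% higher in G7. With replicate number added as a block, 5 of the 17 passed in B10, 1 higher and 4 lower. In G7, 3 passed with the block, 1 higher and 2 lower. The median difference over the 17 was 0.0860 percentile points in B10, against 0.702 over all such regions, and -0.240 in G7, against -0.0350. Both comparisons use the same WT libraries, and so their calls are not independent.

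The only region in the body of Kcnk9, intronic chr15:72516914-72517581, was among those that fell. It ranked 83.3, 79.7 and 80.4 in WT, 72.0, 73.0 and 63.2 in B10, and 59.8, 61.0 and 61.3 in G7, with no overlap between any pair of lines. The limma difference was -11.7 points in B10 (SE 3.27, adjusted p = 0.0375) and -20.4 in G7 (SE 3.27, adjusted p = 0.00559). Its fold enrichment was 21.9 to 23.7 in WT, 15.2 to 20.3 in B10 and 13.4 to 14.5 in G7. The 2 clones differed by 8.71 points (SE 3.27), which missed the threshold after adjustment (limma adjusted p = 0.152).

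In an intron of Ago2, chr15:73148555-73150024 ranked 55.5, 54.5 and 46.4 in WT, 31.0, 25.8 and 7.59 in B10, and 0.00126, 2.22 and 12.5 in G7. All KO values lay below all WT values, and in G7 replicate 1 the peak was among the weakest of its library. Rank fell by 30.7 points in B10 (SE 7.04, limma adjusted p = 0.0172) and fell by 47.2 points in G7 (SE 7.04, limma adjusted p = 0.00416). Ranked by fold enrichment in place of -log10 q, the adjusted p from limma was 0.391 in B10 and 0.121 in G7. On a logit scale of the rank the limma adjusted p was 0.440 in B10 and 0.0447 in G7.

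In intron 14 of Trappc9, chr15:72928926-72929926 ranked 77.7, 64.2 and 64.3 in WT, 61.3, 20.8 and 26.8 in B10, and 60.1, 53.5 and 47.1 in G7. Rank fell by 32.4 points in B10 (SE 9.59, limma adjusted p = 0.0466), with B10 replicate 1 nearest to WT. With no trend in the limma spread the adjusted p in B10 was 0.0861. In G7 the difference was -15.1 points (SE 9.59, limma adjusted p = 0.359). All 6 KO values lay below all WT values. The direct comparison of B10 with G7 gave -17.3 points (SE 9.59, limma adjusted p = 0.335), so the clones were not shown to differ.

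Calls in B10 depended on single libraries. No region passed in B10 without WT replicate 2 or without B10 replicate 3, and 1 passed without WT replicate 1, WT replicate 3, B10 replicate 2, G7 replicate 2 or G7 replicate 3. The 2 calls in G7 were made with any single library left out. When replicate number was added as a block, 5 regions passed in B10, 1 higher and 4 lower, and 3 in G7.

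The regions added by the block were chr15:72888873-72889661, in intron 16 of Trappc9, and chr15:73136721-73137792, in an intron of Ago2. At the Ago2 region WT ranked 79.5, 79.6 and 75.7, B10 83.3, 85.7 and 82.7, and G7 85.7, 82.7 and 85.0, so every KO value exceeded every WT value. The limma difference was 5.63 points in B10 (adjusted p = 0.0571) and 6.19 in G7 (adjusted p = 0.0549), and with the replicate block the adjusted p was 0.0202 and 0.0170. On the log2 scale of fold enrichment, the limma difference was 0.05 in B10 (adjusted p = 0.827) and -0.03 in G7 (adjusted p = 0.892), so the direction in G7 turned with the measure. At the Trappc9 region WT ranked 34.2, 31.2 and 34.9, B10 13.4, 14.6 and 17.5, and G7 12.7, 33.1 and 28.5. The limma difference there was -18.3 in B10, with adjusted p = 0.0682, and 0.0356 with the block.

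Between B10 and G7, limma called 0 of the 17 regions, with 3 at an unadjusted p under 0.05, against 4.21% higher and 2.39% lower in B10 genome-wide. The intergenic region chr15:73078303-73079273 differed most by unadjusted p after those already named, at 14.3 points (SE 6.22, limma adjusted p = 0.215).

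**Figure D5:**
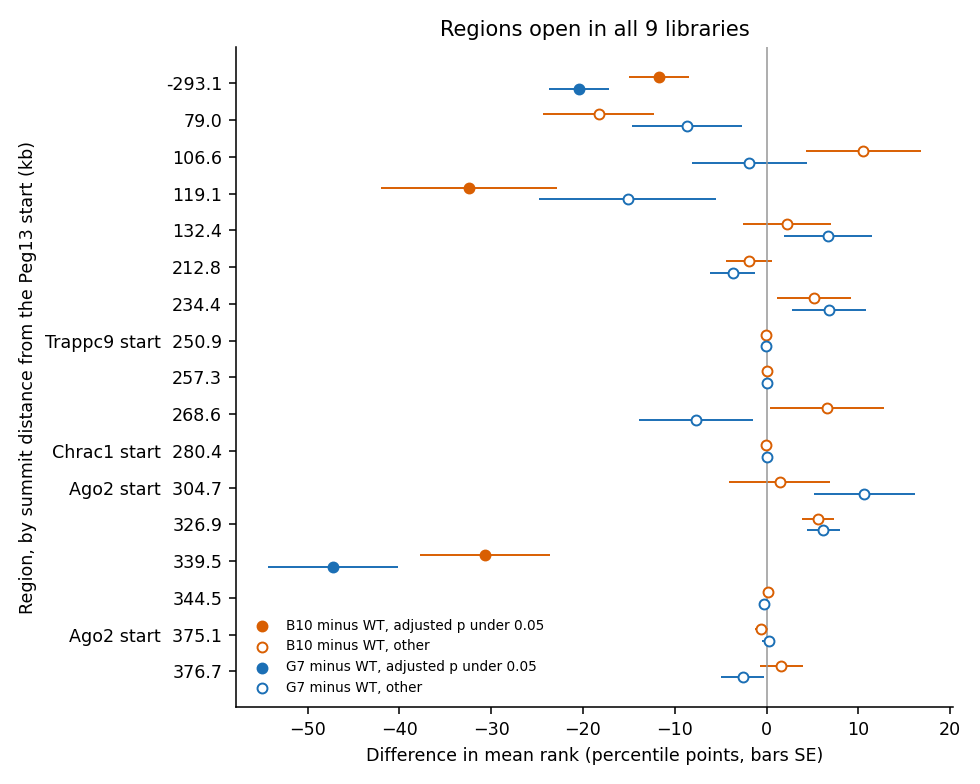
Difference in mean rank from WT in percentile points (x axis, points with SE bars) for the 17 domain regions open in all 9 libraries, ordered along the chromosome by distance from the Peg13 start (y axis), with filled points where the limma adjusted p was under 0.05. Filled points, from the fit without a replicate block, lie at -11.7, -32.4 and -30.7 for B10 and at -20.4 and -47.2 for G7. The start-site regions of Trappc9 and Chrac1 lie near 0.

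A run of weaker regions in introns at the start-site end of Ago2, singled out after the values were seen, had a peak in more libraries of each KO clone than of WT without meeting the rule for a gain. At chr15:73164457-73165584 only WT replicate 2 held a peak, at 10.7, while B10 ranked 29.4, 34.8 and 23.4 and G7 44.8, 33.4 and 10.3. At chr15:73170245-73171110 WT replicates 1 and 2 ranked 19.5 and 5.86, B10 43.2, 47.5 and 43.3, and G7 25.3, 37.0 and 29.4. At chr15:73179551-73179934 only WT replicate 1 held a peak, at 29.7, while B10 ranked 58.3, 25.9 and 32.6, and G7 replicates 1 and 3 ranked 49.4 and 25.6. Ranks of WT and KO peaks overlapped at the first and the last of these regions, and at the middle one every KO rank was above both WT ranks. With regions that had gaps included, the limma difference at the middle one was 32.0 points in B10 (adjusted p = 0.0131) and 17.9 in G7 (adjusted p = 0.130). Beside the strong intronic region chr15:73154321-73155610, at 98.8 to 99.7 in every library, these were minor peaks. Without WT replicate 1 or without WT replicate 2, 2 domain regions counted as gained in both clones, in place of 1. The fit with gaps included also gave -34.8 points in B10 (limma adjusted p = 0.0287) at chr15:73031602-73032342, in an exon of Trappc9. In G7 the difference there was -14.2 points (limma adjusted p = 0.344). At this region WT ranked 61.4, 35.7 and 42.8, B10 replicates 2 and 3 ranked 8.88 and 14.8, and G7 replicates 1 and 3 ranked 33.7 and 31.3. B10 replicate 1 and G7 replicate 2 had no peak there and did not enter the fit.

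Apart from the Peg13 region, the number of peaks in the domain was 43, 39 and 40 in WT, 40, 35 and 29 in B10, and 40, 37 and 35 in G7. The mean was 40.7 ± 2.08 (SD, n = 3) in WT and 34.7 ± 5.51 (SD, n = 3) in B10, and a two-sided exact permutation test gave p = 0.3 (adjusted p = 0.3 over 2 comparisons). In G7 the mean was 37.3 ± 2.52 (SD, n = 3), and the exact permutation p was 0.3 (adjusted p = 0.3). The smallest p that 3 against 3 allows is 0.1, above the threshold. These counts take no account of the total number of peaks in a library. As a share of that total, they were 0.0488% to 0.0529% in WT and 0.0357% to 0.0452% in B10. In G7 the share was 0.0458% to 0.0503%. Every B10 share lay below every WT share, and the shares were not tested. B10 replicate 3 had the fewest domain peaks, and without it the difference of B10 from WT moved from -6.00 to -3.17 peaks. The 27 merged regions of the domain that were not consensus had a median rank of 4.73, and 18 of them were seen in 1 library only.

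For comparison with Peg13, all annotated starts of 12 other imprinted genes with a start in a maternally methylated germline region were examined. Many of these genes have several starts, such as 11 at Plagl1 and 9 at Grb10. Which start lies in the germline region was not determined, so a peak counted here need not lie in that region. A peak within 1 kb of any annotated start was present in all 9 libraries for 5 of the genes and absent from all 9 for 4. Among the 10 consensus regions at these starts, 1 was gained in both clones, against 2.97% genome-wide, at a start of Grb10, and 1 was lost in both, against 4.36%, at Plagl1, where WT ranked 74.3 to 79.5 and no KO library held a peak. Both were named after their values were seen. In B10, 3 of the 10 were gained, against 10.4% genome-wide, and 2 lost, against 7.58%. In G7, 1 was gained, against 5.69%, and 1 lost, against 7.42%. In listed order, Mest, a paternally expressed gene of mesoderm, had a peak in 2 B10 libraries and 1 G7 library, and Peg3 had none in any library. Peg10 had one in 3 of 3 B10 libraries, at 54.6 to 60.3, and in no other line, and Snrpn had none. The genes Blcap, Herc3, Commd1 and H13, which like Trappc9 host an imprinted gene in an intron, all had a start-site peak in 9 of 9 libraries. None of their 8 regions was called gained or lost in either clone. Genome-wide shares were 10.4% gained and 7.58% lost in B10, and 5.69% and 7.42% in G7. At such shares, 8 regions are too few for a difference to be read from them.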

How the data were processed

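Omni-ATAC-seq peak lists of 9 libraries were used, 3 each from WT, B10 and G7, grouped by their labels. According to the study's methods, paired-end reads were filtered with Rfastp, aligned to mm10 with Rsubread and called per replicate with MACS2 in BAMPE mode (version not given in the sources used here). The deposited columns hold, for each peak, its position, a display score, the fold enrichment at the summit as a ratio to background, and -log10 p-values and -log10 q-values. The score and p-values were not used. Peak names mention an input that the methods do not describe.

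Peaks on the assembled autosomes and sex chromosomes that overlapped or touched were merged with Python 3.11.15. Within each library, peaks were ranked by -log10 q as a percentile, and a region took its strongest peak. Every library's weakest peak had a -log10 q of at least 1.30, so a missing peak means below the caller's threshold. A region was a start-site region within 1 kb of an annotated start. The study's test on reads could not be run on peak lists, so regions open in all 9 libraries were compared with limma 3.58.1 (R 4.3.3, moderated, spread with a trend over the mean rank, Benjamini-Hochberg over 47431 regions, threshold 0.05), which was tested on simulated data. The simulated libraries were independent, with a common spread for all regions and no replicate effect. That test therefore checked the code and not the calls in these libraries. Libraries with the same replicate number correlated at 0.314 to 0.664 in their deviations from the line mean, others at -0.561 to 0.311, and 9 of 9 correlated best with their own number, so the numbers were taken to pair the libraries. This pairing comes from the values, not from the labels. It was used only in the replicate block, an alternative to the main limma fit and to the unpaired permutation test.

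Sequences were read from GRCm38.p6, and motifs were searched on both strands in the 300 bases around the median summit. No member was matched in the RefSeq promoter table. Named regions were those at members' starts, gained or lost in a clone, changed by limma, or highest for a gene. The members, lists and tests were chosen with earlier results of these data known. Alternatives were the ranked value, its scale, the threshold, the flank, equal peak numbers, the replicate block, regions with gaps and each library left out.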

Additional observations from a re-analysis of the deposited data

How the results depend on the processing

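At the Peg13 start, 6 of 6 KO and 0 of 3 WT libraries held a peak under equal peak numbers and with only peaks of -log10 q of at least 10. These 2 settings only remove weak peaks, so neither could add a WT peak. The KO peaks, at -log10 q of 129 to 187, lay far above the threshold of 10. Those counts are therefore a description and not a check. The lowest KO rank moved from 84.2 to 78.6 with that threshold and to 76.4 by fold enrichment. Counts of gained and lost regions moved as follows. Gained in B10 was 1 in place of 2 with equal peak numbers, with -log10 q of at least 10 on the present side, or without flanks, and 2 to 3 with a library or a replicate number left out. Gained in G7 was 1 to 5 in place of 3, with 5 without WT replicate 1 or 2 and 1 without G7 replicate 2. Gained in both was 1 to 2. Lost in B10 was 4 to 8 in place of 7, with 4 without WT replicate 2. Lost in G7 was 5 in place of 8 at the stricter threshold and 4 to 10 with libraries left out, with 4 without WT replicate 3. Lost in both was 4 to 7. Changed rank in B10 against WT was 3 regions, with 0 by fold enrichment rank, 1 by log2 fold enrichment, 2 on a logit scale, 5 with the replicate block, 5 when regions with gaps were included and 0 to 3 with a library left out. For G7 against WT it was 2, with 1 by fold enrichment rank, 3 with the replicate block, 3 with gaps included and 2 with any library left out. For B10 against G7 it was 0, with 1 without B10 replicate 1. The replicate block changed no other call than those given. Each region called lower in B10 or G7 by the main fit or with the replicate block had the same sign under all 17 alternatives. Many of these could not change the sign. The flanks, the block, gaps included, the trend setting and leaving out a library of the other clone all gave the difference of the main fit. The region at 73031602 was tested only in the fit with gaps included. A fit with no trend in the spread was added after the data were seen and gave 3, 2 and 0, but in B10 the region at 72928926 lost its call (adjusted p = 0.0861 by limma) and that at 72888873 gained one (0.04998). The difference in domain peaks was -8.67 to -3.17 in B10 and -4.67 to -2.17 in G7 with a library left out, and -7.67 (exact permutation p = 0.1) and -1 (exact permutation p = 0.7) with equal peak numbers. Requiring that most of a peak lie in its region was not run, since each peak lies wholly in its merged region. The cause of these changes was not tested.

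The peak lists give no read depth, so a missing peak can be a signal just below the caller's threshold, and a call on presence can turn on 1 library. With 3 libraries of 1 clone each, the KO state and the clone cannot be told apart within a line.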
